A study of Mus musculus with 8 samples.

Results

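The matrix metalloproteinases (MMP), the ADAMTS proteases and the tissue inhibitors of metalloproteinases (TIMP) were followed by name in RNA from cultured mouse forelimb buds. A gene was a member if its symbol in the deposited table was Mmp, Adamts or Timp followed by its number. This gave 41 of the 21692 genes in the table, namely 18 MMP, 19 ADAMTS and 4 TIMP genes. The buds came from CD1 mouse embryos of gestation day 13 and spent 24 h in culture. One group received the vehicle DMSO, and the other received a mixture of organophosphate esters (OPE), modelled on house dust, diluted 1 in 300000. The 4 libraries of each group are called vehicle 1 to 4 and OPE 1 to 4. The series title gives endochondral ossification, the replacement of cartilage by bone, as its subject, and the comparison asked how the mixture altered transcript levels after 24 h. Whole buds in culture mix many cell types, 1 dilution and 1 time were measured, and the sources used here do not give the composition of the mixture.

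Members of all 3 groups act on the matrix outside the cell. MMPs are zinc-dependent proteases made as inactive proenzymes. Most are secreted, and the membrane-type MMPs stay on the cell surface. In growing limbs Mmp13, a collagenase of late hypertrophic chondrocytes and osteoblasts, and Mmp9, a gelatinase of the cells that resorb cartilage and bone, help to clear the cartilage matrix. ADAMTS proteases are secreted and carry thrombospondin repeats, and some of them cleave aggrecan, the main proteoglycan of cartilage. TIMPs bind the active site of MMPs and block it, and Timp2 also takes part in the activation of Mmp2 by Mmp14 on the cell surface.

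The libraries held between 14986793 and 22006738 reads counted to genes. In a principal component analysis of log2 CPM, the counts scaled to equal library totals, OPE 3 lay away from the rest on the first component (36.9% of the variance) and OPE 1 on the second (25.3%). On the second component the vehicle libraries, at 12.8 to 23.2, also lay apart from the OPE libraries, at -43.9 to 2.77. All 9 listed markers of limb mesenchyme were present in every library, the forelimb gene Tbx5 among them, at a summed 1403 to 1609 CPM. Separate litters or cultures behind the replicates are not named in the labels. The p-values therefore reflect only how these samples varied, which may be technical in part. In whole buds, fewer cells of a type and less RNA per cell cannot be told apart.

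Of the members, 5 are neighbours on chromosome 9, within 237.7 kb from position 7272514 to 7510238 of the mm10 genome, and no other counted gene lies between them. Mmp13 spans chr9:7272514-7283333, Mmp12 chr9:7344381-7369499, Mmp1b chr9:7368239-7388047, Mmp3 chr9:7445822-7455972 and Mmp10 chr9:7502352-7510238, with Mmp1b on the minus strand and the other 4 on the plus strand. Their promoters are shown because Mmp12 and Mmp13 carry the highest read ratios of the OPE group over the vehicle group among members with reads in both. RefSeq promoter sequences of the build GRCm38.p6 were matched by symbol for 27 of the 41 members. Each stretch runs from 130 bases before to 20 bases after an annotated transcription start, on the strand of the gene. Capitals mark TGANTCA, the element bound by the AP-1 factors Fos and Jun, AACCACA, an element bound by RUNX factors, and the TATA box TATAAA.
Mmp13, chr9:7272384-7272533, plus strand: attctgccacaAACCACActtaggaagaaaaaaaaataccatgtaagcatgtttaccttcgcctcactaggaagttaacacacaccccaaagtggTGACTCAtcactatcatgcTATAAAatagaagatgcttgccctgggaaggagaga
Mmp12, chr9:7347244-7347393, plus strand: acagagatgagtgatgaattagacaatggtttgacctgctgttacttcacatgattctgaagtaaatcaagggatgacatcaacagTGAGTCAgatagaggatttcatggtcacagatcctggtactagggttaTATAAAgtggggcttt
Mmp1b, chr9:7388007-7388156, minus strand: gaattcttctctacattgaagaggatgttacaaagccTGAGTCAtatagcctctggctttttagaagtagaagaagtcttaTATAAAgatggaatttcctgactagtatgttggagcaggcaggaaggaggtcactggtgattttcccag
Mmp3, chr9:7445692-7445841, plus strand: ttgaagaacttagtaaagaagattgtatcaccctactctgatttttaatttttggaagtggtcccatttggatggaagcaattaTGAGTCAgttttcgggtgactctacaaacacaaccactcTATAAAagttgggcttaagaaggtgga
Mmp10, chr9:7502212-7502361, plus strand: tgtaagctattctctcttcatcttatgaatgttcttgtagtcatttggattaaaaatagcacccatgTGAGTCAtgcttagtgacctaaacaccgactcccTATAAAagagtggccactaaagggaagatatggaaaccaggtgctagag

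Both strands of the window from 250 bases before to 50 after each start were searched. TGANTCA was found in 5 of the 27 members, and these were the 5 chromosome 9 genes. It was present in 7.81% of 32851 RefSeq promoter windows of the same length. The TATA box was found in the same 5 genes and in Mmp21 and Adamts1, so in 7 of 27, against 13.6% of all windows. Both elements together occurred in 1.54% of all windows. AACCACA was found in Mmp13 alone, against 5.27% of all windows. For Mmp12 the table has 2 annotated starts, and the matches lie at the second of them, while the window of the first holds none of the 3 elements. In the second window of Mmp12, TATAAA begins 4 bases after the annotated start. The motifs searched do not overlap one another in these stretches. A match describes the letters only, and binding was not measured. Members without an entry were Mmp2, Mmp9, Mmp16, Mmp17, Mmp19, Adamts4, Adamts5, Adamts6, Adamts7, Adamts8, Adamts10, Adamts15, Adamts16 and Adamts19.

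**Figure D1:**
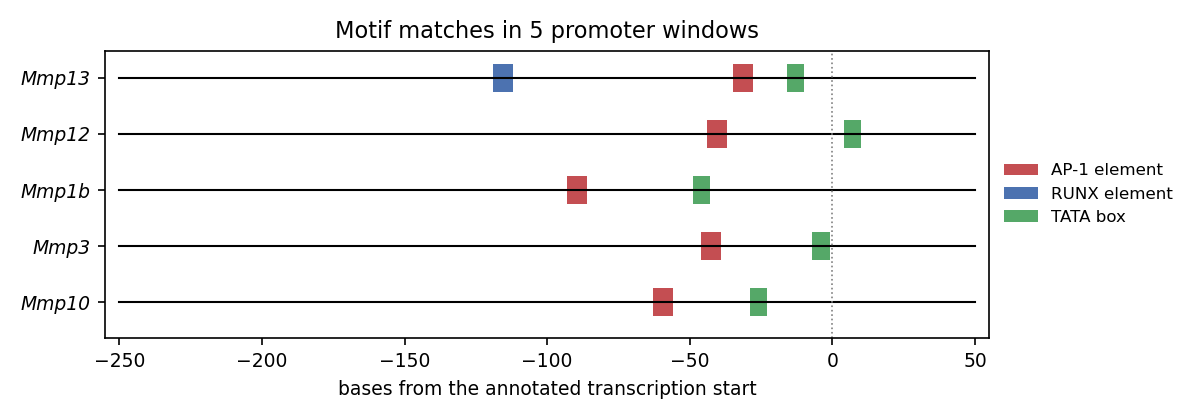
Positions of the 3 motifs in the promoter windows of the 5 chromosome 9 MMP genes; the horizontal axis gives bases from the annotated start, each line is 1 gene's window and each coloured block 1 match. All 5 windows, for Mmp12 that of its second annotated start, hold an AP-1 element and a TATA box, and Mmp13 alone holds the RUNX element.

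Levels per transcript length were compared with the deposited FPKM values (fragments scaled to transcript length and library total). In the vehicle group 28 of the 41 members averaged at least 1 FPKM and 10 at least 10 FPKM. The 3 members above 100 FPKM were Mmp14 at 169.9 ± 3.95 (SD, n = 4), Mmp2 at 161.1 ± 8.20 and Timp2 at 126.6 ± 6.45 FPKM. The first of these is the membrane protease that activates Mmp2, and the last is the inhibitor that assists it. Mmp14 and Mmp2 differed by about their spread, and they made up 80.2% of the summed MMP level. Next came Adamts10, a protease linked to fibrillin microfibrils, at 60.8 ± 2.51 FPKM, and Mmp11, stromelysin 3, at 49.8 ± 3.24 FPKM. Timp3, the inhibitor that binds to matrix, stood at 22.5 ± 3.17 FPKM.

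At the other end, 10 of the 18 MMP genes but 2 of the 19 ADAMTS genes and 1 of the 4 TIMP genes averaged under 1 FPKM in the vehicle group. Mmp12 averaged 0.169 ± 0.0455 FPKM and Mmp13 0.136 ± 0.0397 FPKM there (SD, n = 4). They ranked 34 and 35 among the 41 members. In the OPE group they averaged 1.11 ± 0.951 and 0.770 ± 0.768 FPKM and ranked 29 and 31. Mmp9 moved from rank 12, at 9.08 ± 0.849 FPKM, to rank 8, at 17.5 ± 8.44 FPKM. The SDs in the OPE group were close to the means for Mmp12 and Mmp13, since OPE 1 lay far above the other 3 OPE libraries.

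**Figure D2:**
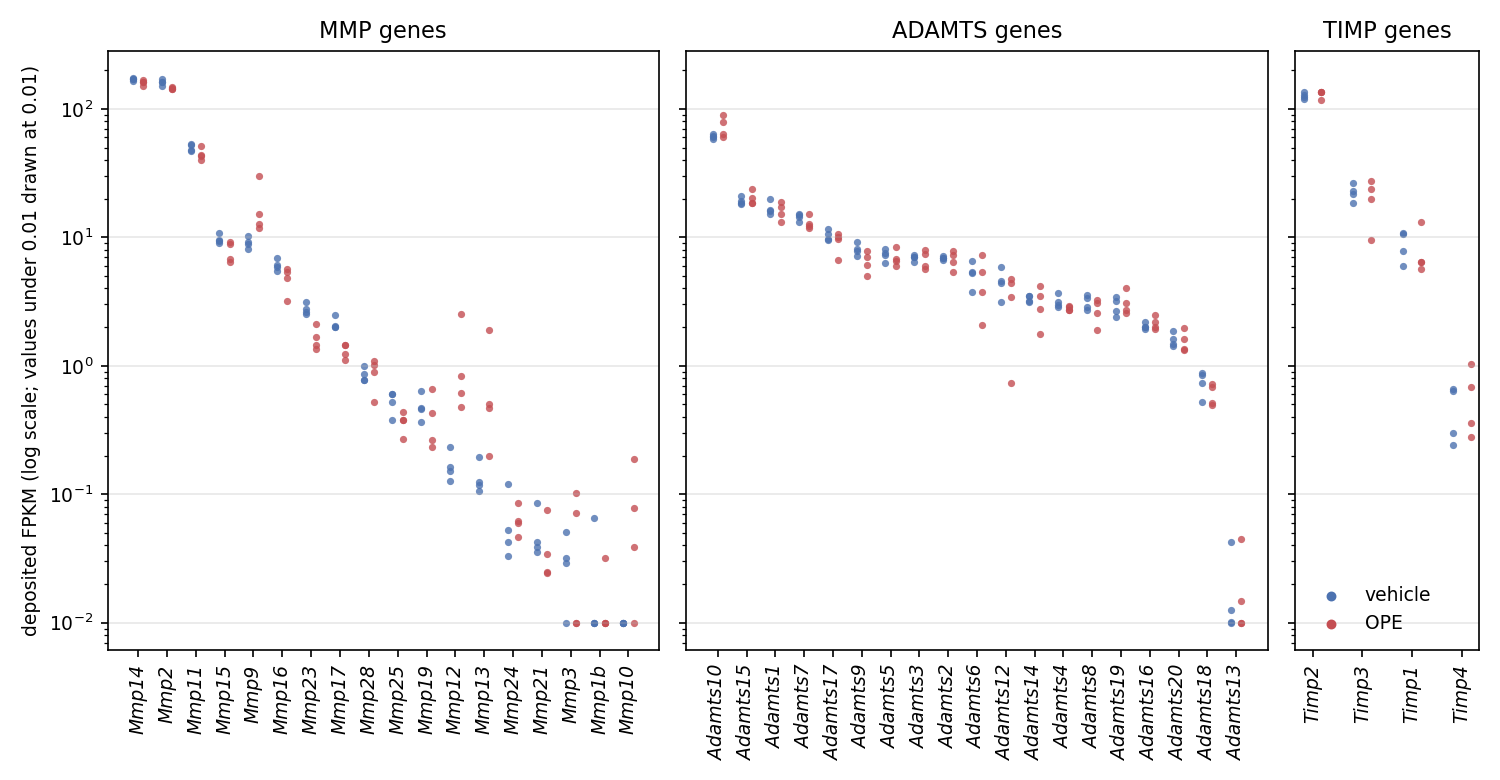
Deposited FPKM of each member on a log axis, ordered by vehicle mean within the MMP, ADAMTS and TIMP genes; each point is 1 library, blue for vehicle and red for OPE, and values under 0.01 are drawn at 0.01. Mmp14, Mmp2 and Timp2 lie above 100 FPKM in both groups, and Mmp12, Mmp13 and Mmp9 show red points above the blue ones.

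Summed over the 18 genes, the MMP level was 413.4, 418.4, 416.1 and 403.8 FPKM in vehicle 1 to 4 and 387.2, 393.2, 379.4 and 387.4 FPKM in OPE 1 to 4. The deposited sums of the groups did not overlap. On library totals scaled by TMM, a factor that adjusts for composition, the vehicle sums ran from 394.5 to 410.3 and the OPE sums from 386.7 to 408.5 FPKM, and they overlapped. The ADAMTS sum was 177.5 ± 6.61 FPKM in the vehicle group and 182.5 ± 26.1 FPKM in the OPE group (SD, n = 4), with the highest value of all libraries, 212.3, in OPE 1 and the lowest, 148.9, in OPE 3. The TIMP sum was 158.3 ± 7.32 and 159.4 ± 13.0 FPKM. The MMP sum divided by the TIMP sum was 2.72, 2.73, 2.48 and 2.53 in vehicle 1 to 4 and 2.28, 2.45, 2.70 and 2.33 in OPE 1 to 4, so the ranges overlapped.

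Of the 41 members, 34 had enough reads to be tested (12 MMP, 18 ADAMTS and 4 TIMP genes). None of the 34 passed the edgeR quasi-likelihood test at a Benjamini-Hochberg adjusted p of 0.05 over all genes, where 0.477% of all genes tested passed (74 of 15517, 68 lower and 6 higher in the OPE group). With a trend of gene length removed from each library, 171 genes were lower and 151 higher. At an unadjusted p under 0.05 there were 5 members of 34, against 13.2% of all genes tested. Those 5 were Mmp12, Mmp9 and Adamts10, higher in the OPE group, and Mmp17 and Mmp23, lower. The same 5 had CPM values that did not overlap between the groups: 3 of 34 with all OPE values higher, against 4.05% of all genes tested, and 2 with all OPE values lower, against 5.44%. Without OPE 1, 1 member passed, Mmp12, among 58 genes called of 15662 tested. Without OPE 1 and OPE 3 together it was again Mmp12 alone, among 85 genes called of 15996 tested. DESeq2 run on the same counts called 4 members, against 3.11% of all genes with an adjusted p (504 of 16221), and limma-voom called none. The authors' deposited table also called 4 members (Mmp12, Mmp9, Mmp13 and Mmp17), against 2.68% of all genes with an adjusted p there.

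The log2 fold changes of OPE over vehicle were below 0 for 22 of the 34 members and above 0 for 12, with a median of -0.09. Over all genes tested the median was 0.01, and 47.2% were below 0. The median was -0.17 for the MMP, -0.05 for the ADAMTS and 0.00 for the TIMP genes. ADAMTS transcripts are long, with a median gene length of 5379 bases against 3065 over all genes tested. Once the trend of gene length was removed, the median was -0.13 for the MMP, 0.02 for the ADAMTS and 0.05 for the TIMP genes. That of all genes was then 0.05. Without OPE 1 the MMP, ADAMTS and TIMP medians were -0.15, -0.11 and 0.04, and that of all genes was 0.001. For 25 members the fold change was smaller than 0.3 in size on the log2 scale.

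**Figure D3:**
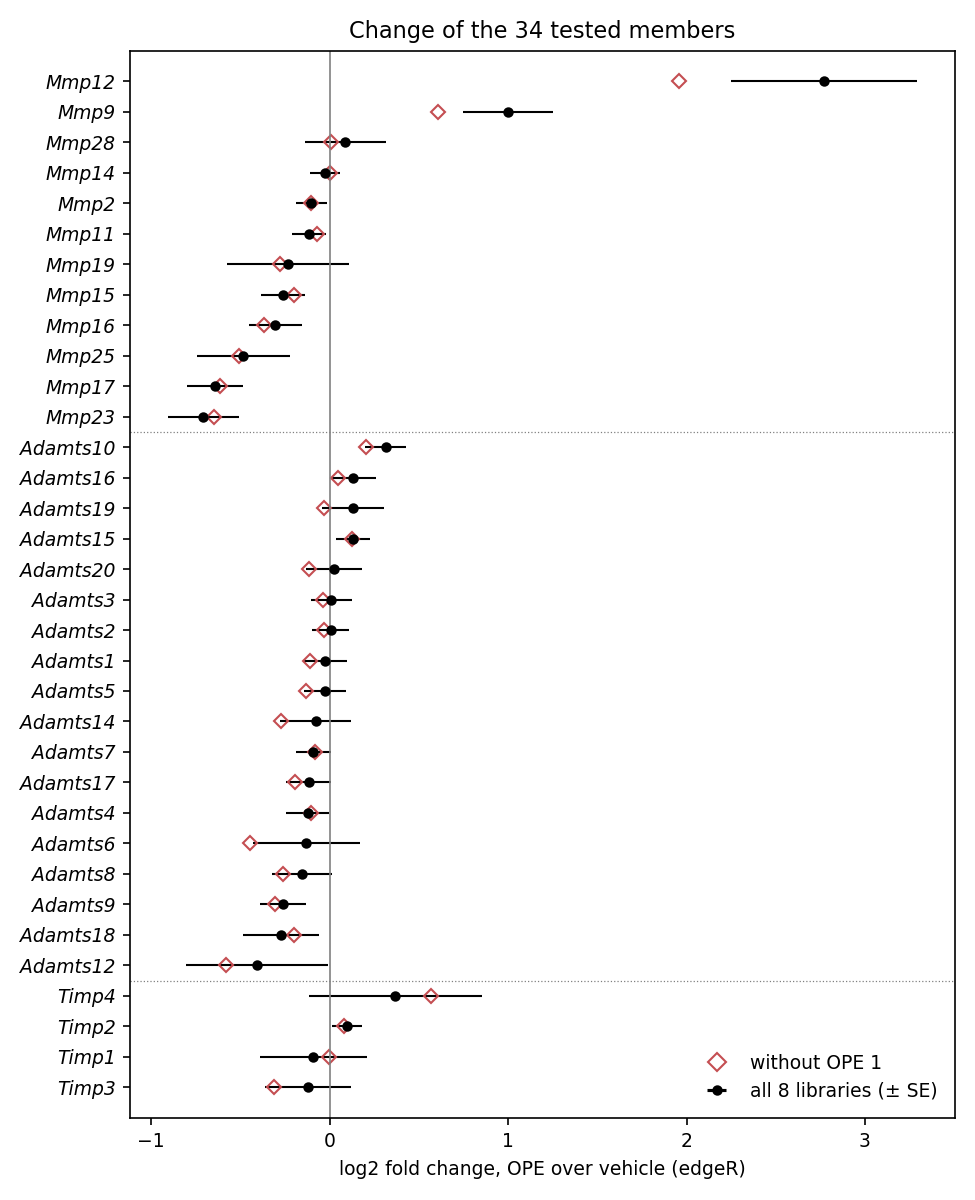
Log2 fold change (OPE over vehicle, edgeR) of the 34 tested members; black points with bars give the value and its SE with all 8 libraries, and open red diamonds the value without OPE 1. Mmp12 lies at 2.77 and Mmp9 at 1.00, both nearer to 0 without OPE 1, while 25 members lie within 0.3 of 0.

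Mmp12, macrophage elastase, had the largest difference. It measured 0.564, 0.714, 1.03 and 0.666 CPM in vehicle 1 to 4 (10, 14, 22 and 15 reads) and 11.3, 2.12, 2.98 and 3.73 CPM in OPE 1 to 4 (246, 32, 43 and 56 reads). All 4 OPE values lay above all vehicle values, and OPE 1 held 56.3% of the summed OPE level. This gave a log2 fold change of 2.77 ± 0.52 (SE) with an adjusted p of 0.0501, just short of the threshold. Without OPE 1 it was smaller, 1.96, but the remaining libraries varied less and the adjusted p was 0.0334. Over the 18 settings run the adjusted p ranged from 9.15e-06 to 0.166, and Mmp12 passed in 9 of them. Mmp12 and Mmp1b share 157 exon bases on opposite strands, and the sources used here do not give the strand setting of the counting, but Mmp1b had 0.685% as many reads.

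Mmp13, the collagenase, was below the expression filter with all 8 libraries. Its reads were 5, 10, 7 and 7 in vehicle 1 to 4 and 111, 19, 21 and 8 in OPE 1 to 4, or 0.282, 0.510, 0.328 and 0.311 CPM and 5.12, 1.26, 1.46 and 0.533 CPM. The CPM values of the groups did not overlap, but OPE 4 lay only just above vehicle 2. Scaled by library totals, the 159 OPE reads against 29 vehicle reads gave a ratio of 6.5, with an exact 95% binomial interval of 4.35 to 10.01. OPE 1 held 69.8% of the OPE reads, or 61.2% of the summed OPE level in CPM. Without OPE 1 the ratio was 2.90 (1.79 to 4.77). Such intervals cover counting error only, since reads copied by PCR are not independent molecules, and they do not cover the spread between libraries. With no filter on low counts the edgeR log2 fold change was 2.57 with an adjusted p of 0.0999, and DESeq2 gave 2.57 with an adjusted p of 0.004. Mmp13 passed the filter without OPE 4, where edgeR called it (log2 fold change 2.88, adjusted p = 0.0469). It also passed the filter without OPE 3 but was not called there (2.72, adjusted p = 0.073). Most markers of cells known for Mmp13 were lower in the OPE group. The hypertrophic chondrocyte markers summed to 207.2 to 274.7 CPM in the vehicle group and 136.8 to 162.8 CPM in the OPE group. Of these 7 markers 4 were called as lower (3 without OPE 1 and OPE 3), and 6 had log2 fold changes below 0. Ihh went the other way, with a log2 fold change of 0.32 ± 0.15 (adjusted p = 0.417). The osteoblast markers summed to 2887 to 3270 CPM and 2328 to 2487 CPM, with 3 of 6 tested called (2 without OPE 1 and OPE 3). Most of that sum was Col1a1, at 2731.8 to 3046.4 CPM in the vehicle group and 2302.1 to 2438.5 CPM in the OPE group. Col1a1 itself was not called (log2 fold change -0.28 ± 0.10, adjusted p = 0.25). Sp7 is in both marker lists and was called, so it counts in each. The osteoblast gene Ibsp measured 62.4 to 168.7 CPM in the vehicle group and 2.03 to 20.9 CPM in the OPE group (log2 fold change -3.33 ± 0.64, adjusted p = 0.0522). The part of these cells in the Mmp13 values was not tested.

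The other 3 chromosome 9 genes, Mmp1b and the stromelysins Mmp3 and Mmp10, had few reads. Mmp10 had 0 reads in the 4 vehicle libraries and 7, 1, 0 and 2 in OPE 1 to 4. The exact interval of the ratio had a lower limit of 2.66, and 7 of the 10 OPE reads came from OPE 1. Without OPE 1 there were 3 against 0, and the lower limit was 0.724. Mmp3 had 4 vehicle and 6 OPE reads (ratio 1.78, interval 0.421 to 8.56). Mmp1b had 2 and 1. All 5 neighbours together had 96 reads in the vehicle group and 553 in the OPE group, of which Mmp12 and Mmp13 held nearly all. OPE 1 held 369 of the 553, and the other 3 OPE libraries had 184.

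Mmp9, gelatinase B (chr2:164940780-164955850), measured 25.5, 27.5, 31.8 and 28.5 CPM in vehicle 1 to 4 and 95.7, 40.4, 52.1 and 37.8 CPM in OPE 1 to 4. Every OPE value was above every vehicle value, and OPE 1 alone held 42.4% of the OPE level. Its log2 fold change was 1.00 ± 0.26 with an adjusted p of 0.115, and without OPE 1 it was 0.61 with an adjusted p of 0.104. It passed in 1 of 18 settings, DESeq2, with an adjusted p of 0.00766, and the range over the settings was 0.00766 to 0.315. Mmp2, gelatinase A, was far more abundant per length in both groups. Its values were 510.3, 484.0, 486.8 and 444.8 CPM in the vehicle group and 440.3, 447.0, 473.8 and 431.4 CPM in the OPE group, which overlap. The log2 fold change of Mmp2 was -0.10 ± 0.09 with an adjusted p of 0.689. The difference between the changes of both gelatinases was not tested.

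**Figure D4:**
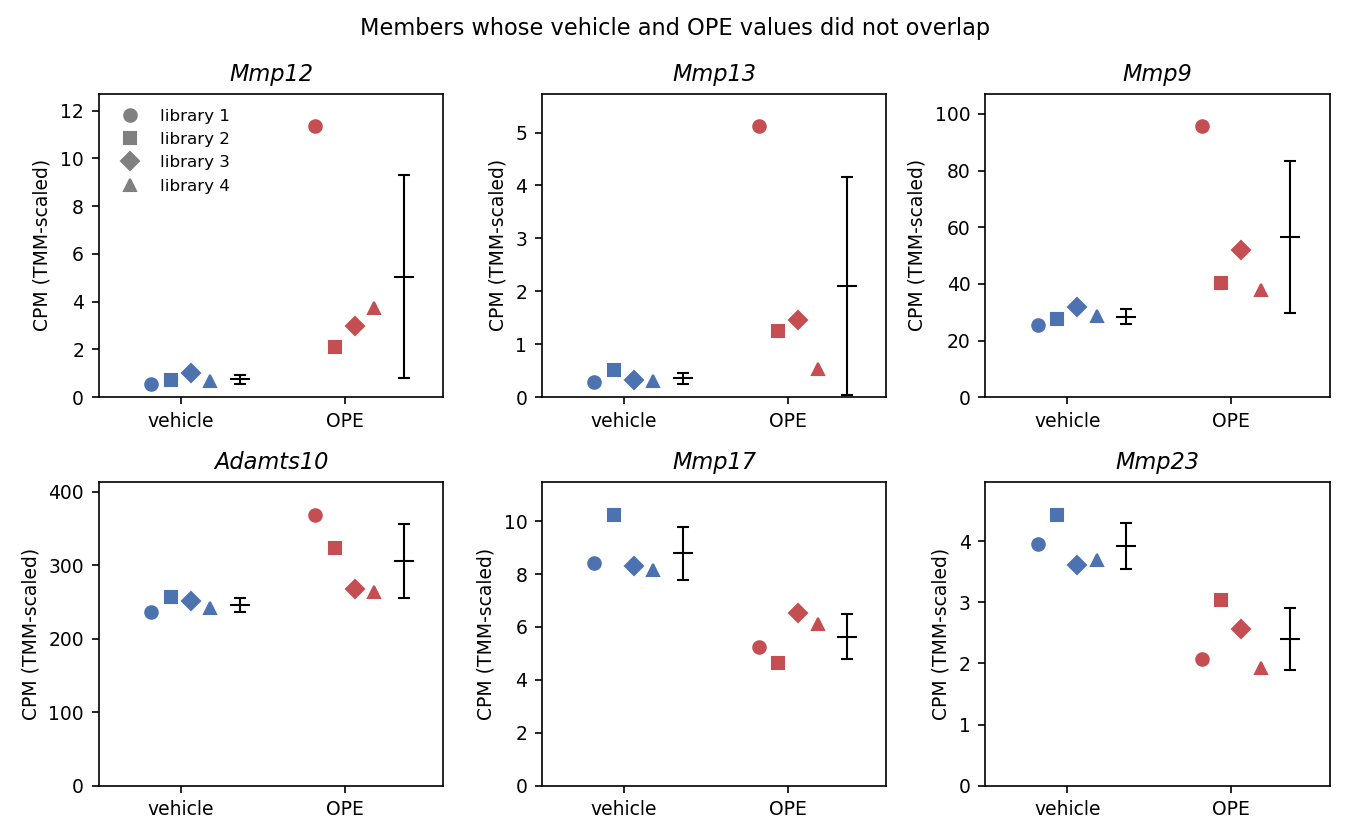
CPM of the 6 members whose groups did not overlap; each point is 1 library (its shape gives the library number), blue for vehicle and red for OPE, and the black bar gives the mean ± SD of the 4 libraries. OPE 1 is the highest library for Mmp12, Mmp13, Mmp9 and Adamts10, whereas it lies among the other OPE libraries for Mmp17 and Mmp23.

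Mmp12 and Mmp9 are known from macrophages and osteoclasts, and markers of these cells were read beside them. Of the 12 listed macrophage markers 11 were in the table, all 11 had log2 fold changes below 0 and 7 passed the test as lower, as did 7 without OPE 1 and OPE 3. Their summed level was 177.3 to 212.9 CPM in the vehicle group and 32.6, 59.8, 91.4 and 81.7 CPM in OPE 1 to 4. OPE 1 had the lowest macrophage sum and the highest Mmp12 and Mmp9, while OPE 3 had the highest macrophage sum of the OPE libraries and the second highest Mmp9. The part of these cells in the Mmp12 and Mmp9 values was not tested. Csf1r, the receptor that macrophages depend on, was 18.9 to 25.6 CPM in the vehicle group and 2.21 to 5.93 CPM in the OPE group, with a log2 fold change of -2.51 ± 0.24 and an adjusted p of 0.00369. Of the 7 osteoclast markers 6 were in the table and 3 were tested, of which none passed. The sum of the 6 was 32.7 to 42.7 CPM in the vehicle group and 28.3 to 39.6 CPM in the OPE group. The tested ones were Acp5, Ctsk and Atp6v0d2. These 3 went in both directions: Acp5 had a log2 fold change of -0.45 ± 0.15, Ctsk -0.15 ± 0.13 and Atp6v0d2 0.95 ± 0.49. The osteoclast receptors and fusion genes Oscar and Ocstamp had 11 and 17 reads over all 8 libraries. Of the 9 neutrophil and mast cell markers 7 were in the table and 2 tested, with sums of 31.4 to 37.5 and 29.4 to 33.4 CPM. Most of these sums was Kit (log2 fold change -0.03 ± 0.12). The other tested gene, Cpa3, had -0.83 ± 0.41 (adjusted p = 0.417), and Elane and Mpo had 1 and 13 reads in all.

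**Figure D5:**
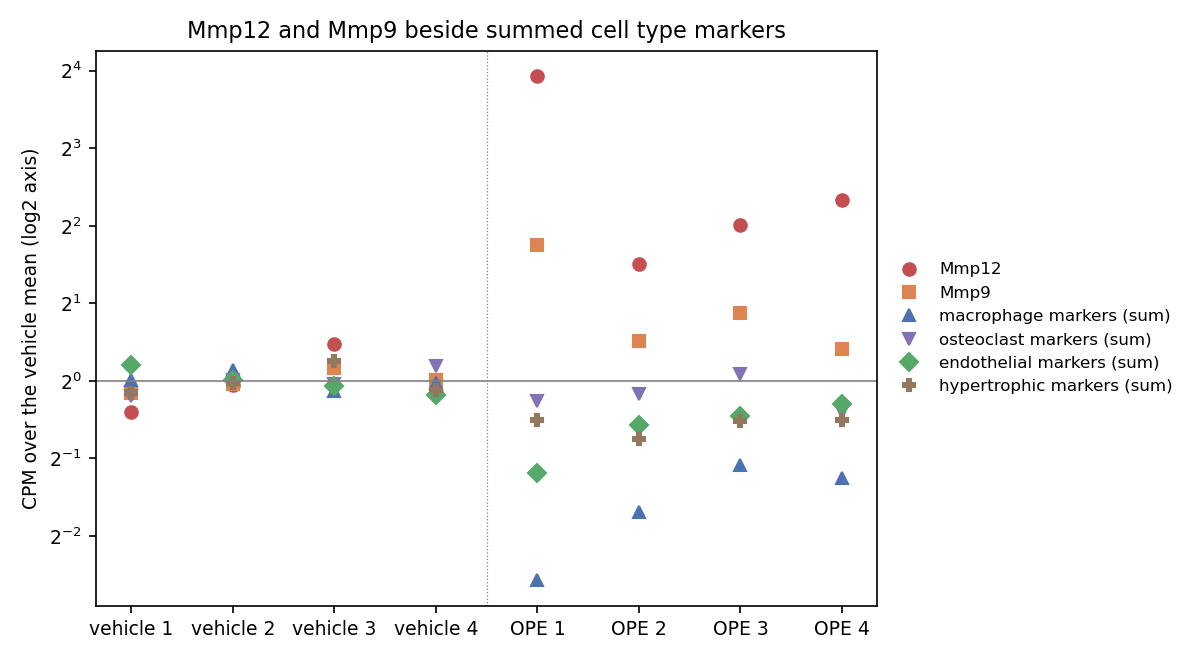
Mmp12, Mmp9 and the summed markers of 4 cell types in each library, as CPM over the vehicle mean on a log2 axis. In the OPE libraries Mmp12 and Mmp9 lie above 1 and the macrophage and endothelial sums below it, with the macrophage sum lowest in OPE 1 at 32.6 CPM.

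Among the membrane-type MMPs, Mmp14 had nearly equal levels in both groups. It measured 423.1, 434.9, 445.3 and 432.4 CPM in the vehicle group and 396.2, 419.4, 452.0 and 437.6 CPM in the OPE group, with OPE values on both sides of the vehicle range. Its log2 fold change was -0.03 ± 0.09 (adjusted p = 0.94), and it was 0.01 with the trend of gene length removed. Mmp17, held on the membrane by a lipid anchor (chr5:129584169-129608875), measured 8.41, 10.25, 8.29 and 8.17 CPM in vehicle 1 to 4 and 5.26, 4.63, 6.52 and 6.13 CPM in OPE 1 to 4. All OPE values were lower than all vehicle values. Mmp17 had a log2 fold change of -0.64 ± 0.16 with an adjusted p of 0.102 (0.0124 to 0.283 over the settings), and it passed in 2 of 18 settings, DESeq2 and without OPE 3 (-0.72, adjusted p 0.0401).

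Mmp23, a membrane-linked MMP without the usual hemopexin domain (chr4:155650655-155653384), measured 3.95, 4.44, 3.61 and 3.68 CPM in the vehicle group and 2.08, 3.04, 2.57 and 1.93 CPM in the OPE group. Again every OPE value lay below the vehicle range. Mmp23 had a log2 fold change of -0.71 ± 0.20 with an adjusted p of 0.158, and 0.0571 was the lowest adjusted p in any setting. Of the remaining membrane-type genes Mmp15 had a log2 fold change of -0.26 ± 0.12, Mmp16 -0.31 ± 0.15 and Mmp25 -0.48 ± 0.26, with adjusted p of 0.396, 0.42 and 0.467, and their values overlapped between the groups. Mmp24 was below the filter, with 21 vehicle and 19 OPE reads (ratio 1.07, interval 0.545 to 2.10), and it shares 637 exon bases with a more abundant gene on the opposite strand. The hypertrophic and osteoblast marker sums given above were also lower. Those of endothelium were 232.5 to 305.6 and 116.4 to 215.5 CPM, with 1 of 8 called (0 without OPE 1 and OPE 3), and the part of these cells in the Mmp17 and Mmp23 values was not tested.

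Mmp11, a stromelysin of mesenchyme, measured 105.7, 119.3, 107.2 and 115.9 CPM in the vehicle group and 92.4, 116.9, 105.0 and 99.1 CPM in the OPE group. The ranges overlapped, and the log2 fold change was -0.12 ± 0.09 (adjusted p = 0.664). The last 2 tested MMP genes, Mmp19 and Mmp28, had log2 fold changes of -0.23 ± 0.34 and 0.09 ± 0.23. Both share exon bases with a gene on the opposite strand, and for Mmp19 that gene, Tmem198b, had more reads than Mmp19 itself. Mmp21 had 11 vehicle and 7 OPE reads (ratio 0.754, interval 0.248 to 2.13).

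Among the ADAMTS genes, Adamts10 (chr17:33524204-33553782) was the one with an unadjusted p under 0.05. It measured 235.7, 256.9, 251.1 and 241.9 CPM in vehicle 1 to 4 and 368.9, 323.5, 267.5 and 264.1 CPM in OPE 1 to 4. The lowest OPE value was above the highest vehicle value, but OPE 3 and OPE 4 were close to it. The log2 fold change was 0.31 ± 0.12 with an adjusted p of 0.272, and it was 0.20 without OPE 1 (adjusted p = 0.50). Over the settings the adjusted p ran from 0.0647 to 0.524.

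None of the proteoglycan-cleaving ADAMTS genes passed the test. Adamts5, the main aggrecanase of mouse cartilage, measured 65.1, 50.1, 59.8 and 57.1 CPM in the vehicle group and 68.0, 52.7, 52.0 and 55.02 CPM in the OPE group. Its log2 fold change was -0.03 ± 0.12 (adjusted p = 0.955), and 0.07 with the trend of gene length removed. Adamts4, the other well-known aggrecanase, measured 12.5, 12.7, 13.6 and 15.8 CPM against 11.9, 11.9, 13.5 and 12.9 CPM, with a log2 fold change of -0.12 ± 0.12 (adjusted p = 0.746). In both genes the groups overlapped.

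Adamts1, a versican and aggrecan protease, measured 96.2, 73.1, 79.2 and 76.9 CPM in the vehicle group and 92.5, 73.7, 68.8 and 84.7 CPM in the OPE group. Its log2 fold change was -0.02 ± 0.12 (adjusted p = 0.96), and 0.05 with the trend of gene length removed. Adamts15 measured 111.7, 105.1, 108.4 and 121.2 CPM and 121.2, 109.2, 118.1 and 139.7 CPM, with a log2 fold change of 0.13 ± 0.10 (adjusted p = 0.622). These values overlapped too. Adamts9 and Adamts20, which act on versican, had log2 fold changes of -0.26 ± 0.13 and 0.02 ± 0.16. Adamts8 had -0.16 ± 0.17.

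Adamts7, a protease of cartilage oligomeric matrix protein (COMP), measured 80.9, 68.9, 75.9 and 77.9 CPM in the vehicle group and 68.7, 63.7, 70.8 and 81.9 CPM in the OPE group. The log2 fold change was -0.09 ± 0.10 (adjusted p = 0.764). It shares 122 exon bases with Tbc1d2b on the opposite strand, which had 86.8% as many reads. Adamts12, its close relative, was chosen after its values were seen. It measured 35.95, 19.3, 28.3 and 26.9 CPM in the vehicle group and 27.6, 21.2, 4.92 and 29.2 CPM in the OPE group. OPE 3 was far below every other library, and the log2 fold change was -0.41 ± 0.40 (adjusted p = 0.743).

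Adamts2, Adamts3 and Adamts14 remove the amino-terminal propeptide of fibrillar procollagens. Their log2 fold changes were 0.01 ± 0.10, 0.01 ± 0.11 and -0.08 ± 0.20, none of which passed. Adamts14 also had its lowest value in OPE 3, at 9.92 CPM against 16.2 to 17.8 CPM in the vehicle group and 21.9 CPM in OPE 1. Adamts6, a relative of Adamts10, showed the same order: 10.8 CPM in OPE 3, 17.9 to 31.0 CPM in the vehicle group and 35.5 CPM in OPE 1. These 2 genes were likewise chosen after their values were seen. The remaining tested ADAMTS genes, Adamts16 to Adamts19, lay between -0.27 and 0.13. Adamts13, the protease of von Willebrand factor, was below the filter with 6 vehicle and 4 OPE reads (ratio 0.790, interval 0.164 to 3.33).

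The OPE libraries differed among themselves in the direction of the members. OPE 1 was above all vehicle libraries for 15 of the 34 tested members and below all of them for 8, that is 44.1% and 23.5%, against 28.8% and 30.9% of all genes. In OPE 3 these counts were 6 and 17, or 17.7% and 50%, against 37.4% and 35.9%. OPE 2 had 5 and 14, or 14.7% and 41.2%, against 25.4% and 23.7%, and OPE 4 had 12 and 5, or 35.3% and 14.7%, against 21.9% and 25.8%. Among the 18 tested ADAMTS genes 2, 8, 8 and 0 were below all vehicle libraries in OPE 1 to 4, beside 30.9%, 23.7%, 35.9% and 25.8% of all genes. The OPE library farthest from the vehicle mean on the log2 scale was OPE 1 for 13 members and OPE 3 for another 13. OPE 3 also had the highest summed level of 6 erythroid genes, 1155 CPM against 391.0 to 587.4 CPM in the vehicle group, and its part in these values was not tested.

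No TIMP gene passed the test. Timp2, the most abundant, measured 439.9, 447.2, 490.8 and 468.6 CPM in the vehicle group and 505.7, 496.2, 468.5 and 504.6 CPM in the OPE group. OPE 3 lay inside the vehicle range and the other 3 above it, with a log2 fold change of 0.10 ± 0.09 (adjusted p = 0.708). Timp3 measured 123.0, 86.2, 107.0 and 100.9 CPM and 129.7, 93.3, 48.2 and 111.1 CPM. OPE 3 was below all other libraries there, and the log2 fold change of -0.12 ± 0.24 (adjusted p = 0.891) became 0.10 without it.

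Timp1, the inhibitor most readily induced by cytokines, measured 5.25, 9.38, 9.27 and 6.70 CPM in the vehicle group and 5.72, 5.62, 12.55 and 4.996 CPM in the OPE group. Its highest value came from OPE 3, and the log2 fold change was -0.09 ± 0.30 (adjusted p = 0.939). Timp4 measured 0.339, 0.918, 0.421 and 0.888 CPM and 0.508, 0.397, 1.04 and 1.47 CPM, with a log2 fold change of 0.37 ± 0.49 (adjusted p = 0.818) that turned to -0.03 without OPE 4. Timp1, Timp3 and Timp4 each lie within a synapsin gene on the opposite strand. For Timp4 that gene, Syn2, had 261% of its reads and shares 90 exon bases, so its values are uncertain.

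Genes that act with these proteases were read from lists. Of 20 tested regulators of their activation, clearance or cell-surface binding none passed, 3 had an unadjusted p under 0.05 (13.2% of all genes did), and the median log2 fold change was -0.09. The smallest p belonged to Serpine2, an inhibitor of thrombin and plasminogen activators, at 123.2 ± 2.15 CPM in the vehicle group and 157.1 ± 15.9 CPM in the OPE group (log2 fold change 0.35 ± 0.09, adjusted p = 0.113). A2m, the plasma protease inhibitor alpha-2-macroglobulin, had -0.71 ± 0.23 (adjusted p = 0.208). Reck, a membrane inhibitor of MMPs, had 0.06 ± 0.13, and Furin, which activates membrane-type MMPs, 0.03 ± 0.10.

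Of 25 matrix substrates 1 passed. Col10a1, the collagen of hypertrophic cartilage, fell from 30.2 ± 17.4 CPM in the vehicle group to 9.10 ± 1.20 CPM in the OPE group (log2 fold change -1.73 ± 0.33, adjusted p = 0.0493). The call held in 7 of 18 settings and in 1 of the 8 that left out a single library, with adjusted p of 1.18e-05 to 0.472. The aggrecan gene Acan had -0.09 ± 0.11 and Col2a1, the main cartilage collagen, -0.06 ± 0.12. The median over the substrates was -0.09. Of the 5 tested astacin proteases and their partners, Pcolce, which enhances the cleavage of procollagens by Bmp1, fell from 85.0 ± 3.67 to 58.8 ± 4.42 CPM (log2 fold change -0.53 ± 0.09, adjusted p = 0.0366). This call held in 12 of 18 settings, with adjusted p of 5.21e-06 to 0.121, and in 2 of the 8 with a library left out. Bmp1 itself had -0.03 ± 0.08.

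Of 21 listed transcription regulators of protease genes none passed, and 6 had an unadjusted p under 0.05, against 13.2% of all genes. Etv5, an ETS factor, had -0.42 ± 0.09 (adjusted p = 0.0644), Epas1 -0.63 ± 0.14 (0.0759) and Runx2, the factor that drives Mmp13 in bone and cartilage, -0.65 ± 0.14 (0.0776). Cebpb, a C/EBP factor, had 0.87 ± 0.32 (0.269), the largest value of the 6 and above 0. It measured 22.4, 9.99, 19.1 and 6.39 CPM in OPE 1 to 4, against 7.14 to 8.69 CPM in the vehicle group. OPE 4 thus lay below the vehicle range. Runx2 measured 57.1 ± 5.55 CPM in the vehicle group and 36.4 ± 7.92 CPM in the OPE group. Of the AP-1 genes, Fos had -0.35 ± 0.39, Fosl1 -0.04 ± 0.17, Jun 0.05 ± 0.11, Junb -0.05 ± 0.25 and Jund 0.32 ± 0.12, none of which passed. The median of the list was -0.04.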

How the data were processed

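Poly-A RNA of the cultured buds was sequenced, as the labels' protocols say. According to the submitters' processing notes the build was mm10 and the tools included STAR 2.5, HTSeq 0.6.1, CASAVA 1.8 and DESeq2 (listed as version 2). In 1 table the authors deposited raw read counts per gene, signal values (counts divided by a size factor), FPKM, a log2 fold change and p-values, per the file headers. The authors' adjusted p-value is NA for 3933 genes, which stayed NA.

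Libraries were grouped by their titles. Replicates always differed by more than counting noise, with a chi-square of at least 5.03 per degree of freedom. The edgeR 4.0.16 test was run on the raw counts under R 4.3.3 (scaling by TMM, filterByExpr, robust quasi-likelihood fit, group as the only term, two-sided), with Benjamini-Hochberg adjustment over all 15517 genes that passed the filter. The biological coefficient of variation was 0.161. CPM values use TMM-scaled totals. DESeq2 1.42.0 and limma 3.58.1 (voom) were alternatives, with other scaling, no filter, a spline of gene length removed, the replicate number as a block, and libraries left out. The steps were tested on simulated data.

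The members, lists and tests were chosen with earlier results of these data known. Members named with every library's value were those with an unadjusted p under 0.05, the 4 of highest mean FPKM in each family, those with at least 50% of the OPE level in OPE 1 (20 or more OPE reads), and Mmp2, Mmp9, Mmp13, Mmp14, Adamts4 and Adamts5. From the lists, those past the threshold or up to 3 of smallest p were named, with a few well-known others named after their values were seen.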

Additional observations from a re-analysis of the deposited data

Results flagged for a closer look

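In 42 groups of 4 values, 1 library stood far from the other 3 by Dixon's criterion in 2, where chance gives about 1 in 20. Mmp17 in vehicle 2 was at 10.25 CPM, above the other vehicle libraries at 8.17 to 8.41 CPM. Timp1 in OPE 3 was at 12.55 CPM, above the other OPE libraries at 4.996 to 5.72 CPM.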

How the results depend on the processing

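Against 74 genes called over the whole table, 81 were called with the DESeq2 size factors in edgeR and 131 with library totals as the scale. With no filter on low counts there were 136, by DESeq2 504, and with the gene-length trend removed 322. With OPE 1 and OPE 3 both left out there were 85. The newer quasi-likelihood method of edgeR, which was chosen after seeing the data, called 112. Leaving out 1 library at a time gave 7 to 308, the highest without OPE 3. Against 0 members called, there was 1 with the DESeq2 size factors in edgeR, 1 with library totals, 1 with no filter, 4 by DESeq2, 1 with the gene-length trend removed and 1 with OPE 1 and OPE 3 both left out. Leaving out 1 library at a time gave 0 to 2. The cause of these differences was not tested. The labels do not say whether the replicate numbers pair the libraries. Each gene's group mean was subtracted from its log2 CPM, and the remaining deviations were correlated between vehicle and OPE libraries. These correlations were 0.309, 0.0818, 0.0126 and 0.0918 for same-numbered libraries. For differently numbered libraries they ran from -0.343 to 0.361. With 4 libraries per group these values cannot decide whether there was a pairing. With the replicate number as a block 62 genes and 0 members were called.

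Of 17 named tested members, 11 kept their direction in every setting. The log2 fold change turned positive with the gene-length trend removed for Adamts1 (0.0509), Adamts5 (0.0653) and Mmp14 (0.0073). With 1 library left out it ranged from -0.11 to 0.0625 for Adamts1, -0.132 to 0.030 for Adamts5, -0.0552 to 0.000115 for Mmp14, -0.49 to 0.0371 for Timp1, -0.312 to 0.0967 for Timp3 and -0.0291 to 0.596 for Timp4. The Mmp13 read ratio was 2.90 without OPE 1, and the mean summed MMP level of the OPE group moved from 386.8 to 394.2 FPKM on TMM-scaled totals. Low reads limit Mmp13 and the other members below the filter.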

Other observations

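Relatives of the ADAMTS proteases were read from 2 further lists, and no gene of either passed the test. Of 7 ADAMTS-like and papilin genes, which lack the protease domain, 2 had an unadjusted p under 0.05 (13.2% of all genes did) and the median log2 fold change was -0.06. Thsd4, a fibrillin-binding member, measured 121.5 ± 11.5 CPM in the vehicle group and 78.8 ± 21.1 CPM in the OPE group (SD, n = 4), with its lowest value, 51.8 CPM, in OPE 3. Its log2 fold change was -0.62 ± 0.17 with an edgeR adjusted p of 0.146. Adamtsl5 had 0.47 ± 0.20 (adjusted p = 0.349).

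Of 11 tested ADAM genes, the membrane-bound relatives, 2 had an unadjusted p under 0.05 (13.2% of all genes did) and the median was -0.06. Adam23, which lacks protease activity, measured 11.1 ± 1.67 and 7.05 ± 2.04 CPM, and its log2 fold change was -0.66 ± 0.21 (adjusted p = 0.195). Adam33 went the other way, with 0.385 ± 0.15 (adjusted p = 0.298). The sheddases Adam10 and Adam17 had -0.01 ± 0.10 and 0.03 ± 0.08.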
